A study of Mus musculus with 6 samples.

Results

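The 37 genes described here encode the machinery of synaptic and regulated exocytosis. They were chosen by name from knowledge of the pathway, but with earlier results of these data known. The shares below are therefore not those of a list chosen blind to the data. All 37 genes had a row among the 23284 gene symbols of the count table. They were measured by RNA sequencing in epithelium isolated from the mouse esophagus at stage E12.5. One group was p63KO, embryos homozygous for a Trp63-CreERT2 allele (3 libraries), and the other was their littermate controls (3 libraries), titled WT and with no further genotype given. Per the labels, each p63KO library carried the same knock-in allele, and no source used here says whether embryos were pooled. P-values therefore measure the spread between these libraries, which may be technical.

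Regulated exocytosis is the release of stored vesicle content when calcium enters the cell. Neurons use it for transmitter vesicles and endocrine cells for hormone granules. A vesicle is guided to the plasma membrane by Rab3 or Rab27 and their effectors, primed by Munc13 and CAPS proteins, and fused by SNARE proteins of the VAMP, syntaxin and SNAP families, while synaptotagmins sense the calcium. NSF and alpha-SNAP then take the spent SNARE complex apart. Most cells also fuse vesicles constitutively and use broadly expressed relatives of the same proteins, such as SNAP23 and VAMP3. The transcription factor p63 is needed to form stratified epithelium, and the lining of the esophagus is one.

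At an adjusted p under 0.05 in edgeR's quasi-likelihood test, 26 of the 35 exocytosis genes with enough counts to test were higher in p63KO than in control, 0 were lower, and 9 did not pass. Across all 13849 genes tested, 15.3% were called higher and 14.3% lower, or 29.6% in either direction. At an unadjusted p under 0.05, 28 of the exocytosis genes were higher and 1 was lower. Of all 13849 genes tested, 2705 were higher and 2716 lower at that threshold. DESeq2 called 26 higher and 0 lower, and limma-voom called 26 higher and 1 lower. The median log2 fold change of the 35 genes was 1.53, against -0.01 for all tested genes. Of the 35, 29 reached the count filter (0.598 CPM, the count scaled to a common library size) in control, and 20 of those were called higher. The other 6 (Snap25, Syt4, Rab3c, Rims1, Syn1 and Syn2) entered the test only through their p63KO counts, so a difference was built into their entry. Of all genes tested, 13021 reached the filter in control, and 1776 of those were called higher. Cplx1 and Rph3a had too few counts to test. In bulk RNA, more cells that express a gene and more RNA per cell cannot be told apart.

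The libraries held between 16948971 and 20093838 counts in control and between 13335328 and 16506401 in p63KO. A count of 3 was worth between 0.153 and 0.223 CPM. Trp63 averaged 602.9 ± 63.9 CPM in control against 71.4 ± 8.03 CPM in p63KO (SD, n = 3 per group), 11.9% of control by the fitted fold, so the libraries matched their labels. Levels below are CPM scaled by the TMM method (trimmed mean of M-values), libraries are given in the order of replicates 1, 2 and 3, and adjusted p-values are from edgeR over all tested genes.

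**Figure D1:**
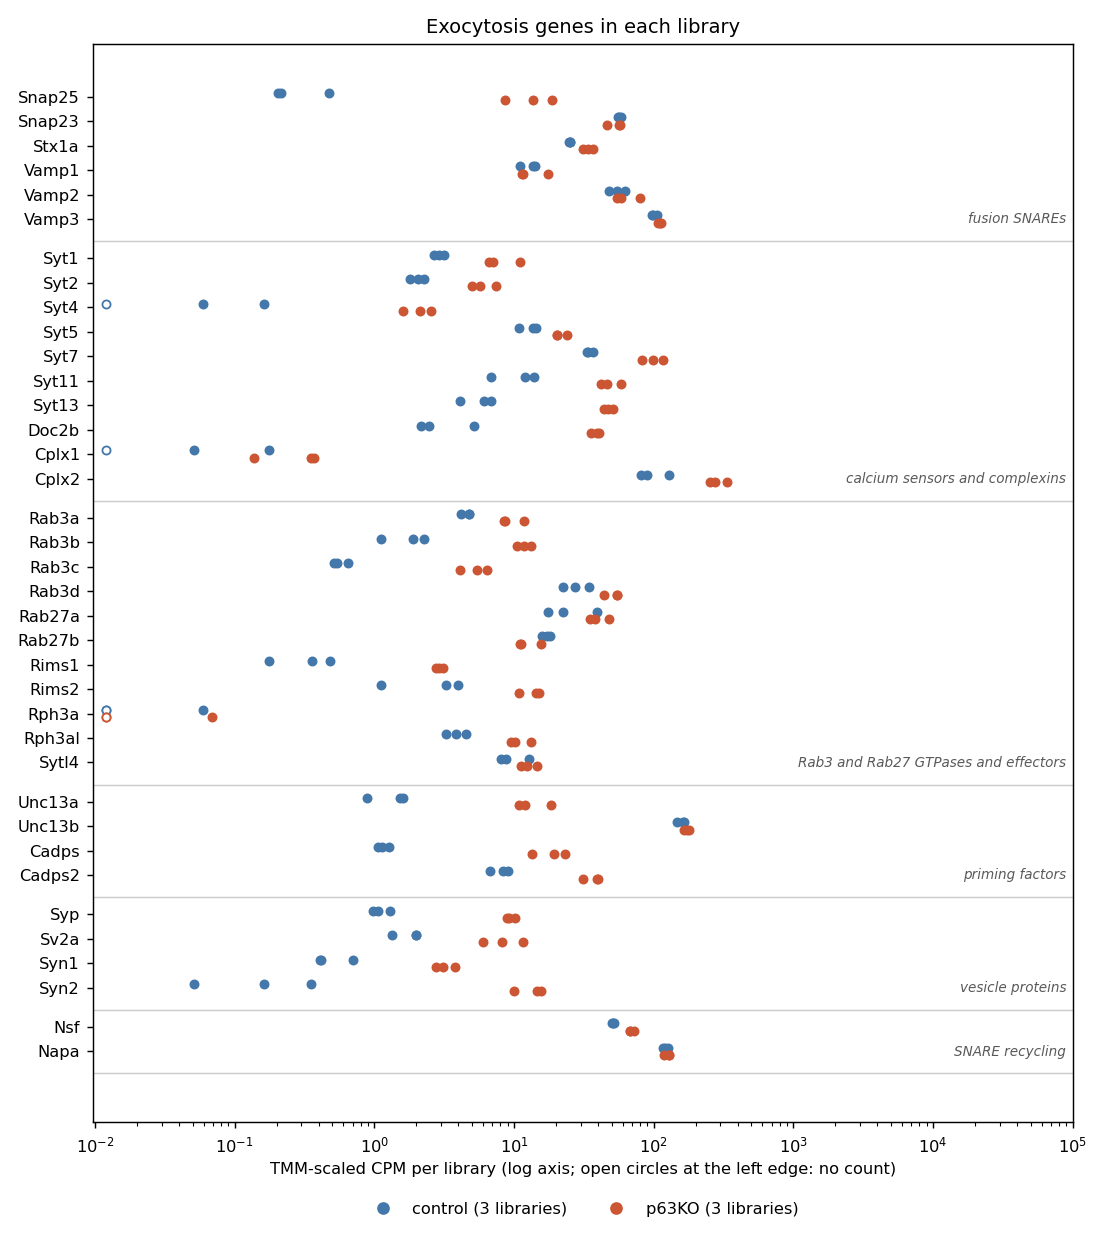
Level of each of the 37 exocytosis genes in every library, as TMM-scaled CPM on a log axis, with the 3 control libraries in blue and the 3 p63KO libraries in orange-red, grouped by role; open circles at the left edge are libraries with no count. Snap25, Syn2 and Syt4 lie furthest to the left in control among the genes that rose, while Snap23, Vamp3, Unc13b and Napa lie at nearly the same level in both groups.

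Among the 6 SNARE genes, Snap25 and Stx1a rose and Snap23, Vamp1, Vamp2 and Vamp3 did not pass the test. Snap25 encodes the plasma membrane SNARE of neurons and endocrine cells. It was at 0.215, 0.204 and 0.471 CPM in the control libraries and at 18.6, 8.59 and 13.7 CPM in the p63KO libraries. The 2 groups were far apart, and the p63KO libraries also differed among themselves, with replicate 1 highest. The log2 fold change of Snap25 was 5.52 (SE 0.41, adjusted p = 1.2e-05), a 45.8-fold rise. Its broadly expressed relative Snap23 was at 57.9, 55.8 and 56.9 CPM in control and at 46.6, 56.9 and 57.8 CPM in p63KO. These values overlapped, and the log2 fold change of Snap23 was -0.08 (SE 0.09, adjusted p = 0.54). Stx1a, syntaxin 1A, the partner of SNAP25 at the plasma membrane, was at 25.0, 24.7 and 25.3 CPM in control and 36.9, 31.3 and 33.9 CPM in p63KO. This was a 1.36-fold rise with no overlap between groups (adjusted p = 0.0057), from a level already well above that of Snap25.

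None of the 3 vesicle SNARE genes passed the test. Vamp2, or synaptobrevin 2, the main vesicle SNARE of neurons and endocrine cells, was at 54.6, 62.7 and 47.8 CPM in control and 79.6, 57.9 and 54.7 CPM in p63KO. The groups overlapped, with 1 high p63KO library, and the log2 fold change was 0.22 (SE 0.15, adjusted p = 0.31). Vamp3, or cellubrevin, which serves recycling endosomes in most cells, was at 99.1, 96.6 and 105.2 CPM in control and 112.4, 107.4 and 111.8 CPM in p63KO. All p63KO libraries lay above control, by a log2 fold change of 0.14 that did not pass (SE 0.06, adjusted p = 0.12). Vamp1, a further neuronal vesicle SNARE, overlapped between groups at 13.0 ± 1.74 and 13.5 ± 3.50 CPM (SD, n = 3 each; adjusted p = 0.87).

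All 9 tested calcium sensor and complexin genes rose. Syt4, an unusual synaptotagmin of granules and vesicles, had the largest log2 fold change of them, 4.70 (SE 0.62, adjusted p = 0.00041). It had only 4 counts in control over the group and 93 in p63KO, and its estimate was 5.89 without control replicate 1 and 4.12 without control replicate 2. Doc2b, a high-affinity calcium sensor with paired C2 domains, was at 2.15, 2.45 and 5.18 CPM in control and 39.0, 35.9 and 40.8 CPM in p63KO. The p63KO libraries were close to each other, while control replicate 3 stood above the other control libraries, and the rise was 11.9-fold (log2 fold change 3.58, SE 0.27, adjusted p = 1.3e-05). Syt13, a synaptotagmin that does not bind calcium, was at 6.87, 4.09 and 6.06 CPM in control and 51.1, 44.0 and 47.5 CPM in p63KO, an 8.39-fold rise (adjusted p = 2.4e-06). It had the lowest adjusted p of the 35 genes.

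Syt7, a slow, high-affinity sensor of granule release, was at 36.8, 33.5 and 34.1 CPM in control and 115.9, 82.8 and 98.9 CPM in p63KO. It was already well expressed in control, and rose 2.85-fold (adjusted p = 1.3e-05). Syt11, a synaptotagmin without calcium binding, rose 4.49-fold, from 10.9 ± 3.63 to 48.7 ± 8.39 CPM (adjusted p = 0.00011). The fast sensors of transmitter release, Syt1 and Syt2, were low in both groups. Syt1 went from 2.91 ± 0.24 to 8.25 ± 2.37 CPM (2.83-fold, adjusted p = 0.0014), and Syt2 from 2.03 ± 0.24 to 6.03 ± 1.22 CPM (2.96-fold, adjusted p = 0.00095). Syt5, a further calcium-binding synaptotagmin, had the smallest rise of the group, 1.67-fold from 12.9 ± 1.88 CPM (adjusted p = 0.0035).

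Complexins clamp and release the assembled SNARE complex. Cplx2 was at 128.1, 81.0 and 89.7 CPM in control and 336.5, 251.2 and 275.1 CPM in p63KO, a 2.89-fold rise (log2 fold change 1.53, SE 0.17, adjusted p = 0.00014). Per kilobase of exon, it was the highest of the 37 genes in p63KO. Its relative Cplx1 stayed near the detection limit, with 4 control counts and 13 p63KO counts, a ratio of 4.0 after scaling for depth (exact 95% interval 1.24 to 16.8, which covers counting error only).

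**Figure D2:**
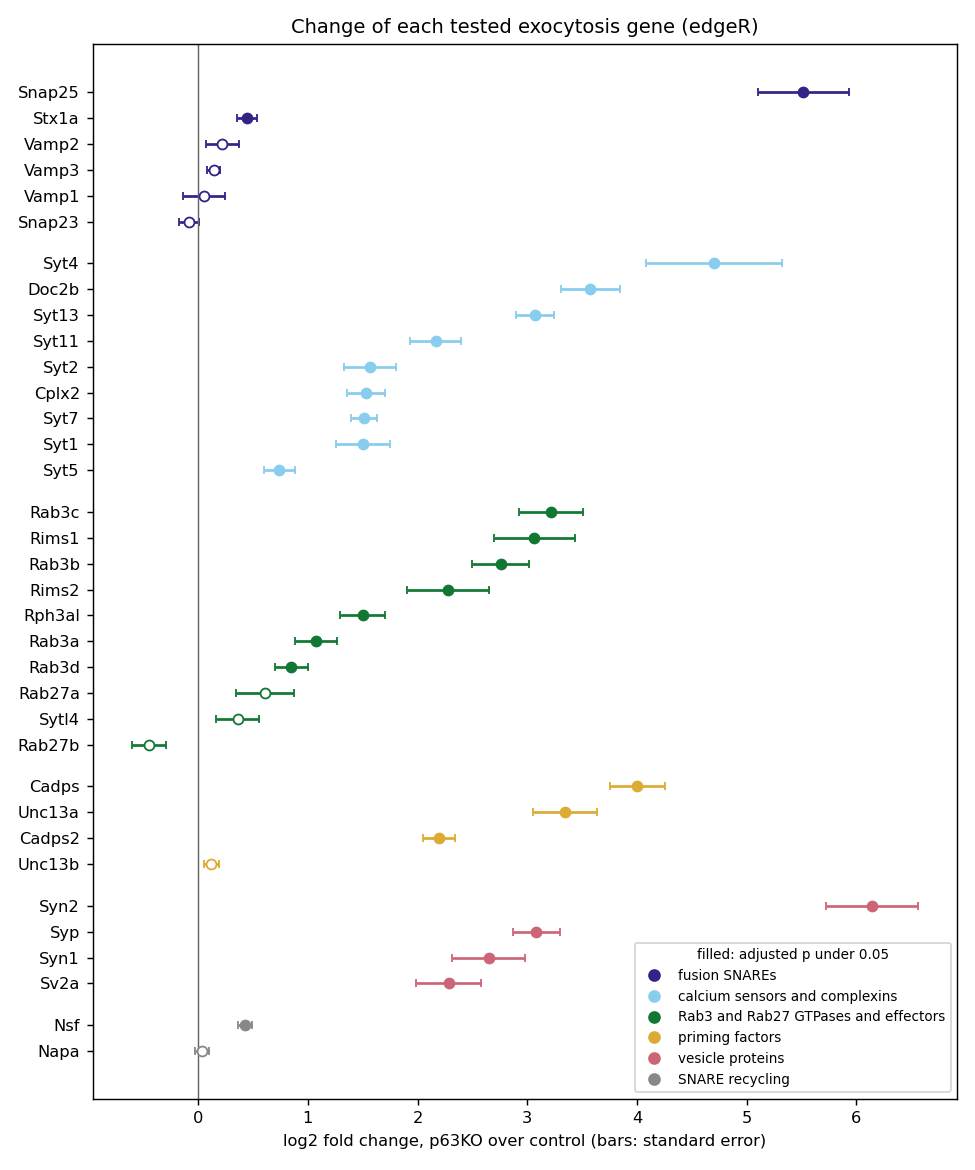
Log2 fold change of p63KO over control for the 35 tested exocytosis genes (points) with its standard error (bars), grouped by role; filled points have an edgeR adjusted p under 0.05. The 26 filled points all lie to the right of 0, from 0.43 for Nsf to 6.14 for Syn2, and Rab27b at -0.45 is the lowest open point.

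The Rab3 genes, small GTPases that tether secretory vesicles, rose in all 4 paralogs but by different amounts. Rab3c was at 0.54, 0.51 and 0.65 CPM in control and 6.37, 4.09 and 5.42 CPM in p63KO, a 9.30-fold rise (log2 fold change 3.22, SE 0.29, adjusted p = 4.2e-05). Rab3b rose 6.77-fold, from 1.75 ± 0.58 to 11.9 ± 1.41 CPM (adjusted p = 5.1e-05). Rab3a, the main paralog at synapses, rose 2.11-fold, from 4.58 ± 0.34 to 9.64 ± 1.87 CPM (adjusted p = 0.0025). Rab3d, the paralog of exocrine granules, was at 34.6, 22.6 and 27.5 CPM in control and 54.5, 43.9 and 54.4 CPM in p63KO, a rise of 0.85 on the log2 scale (adjusted p = 0.0026). The order of the folds was thus the reverse of the order of the control levels per kilobase of exon. The control level enters both the level and the fold, and Rab3c entered the test only through p63KO. This order is therefore a description only.

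The Rab27 genes, which mark granules and lysosome-related organelles in many tissues, did not pass the test. Rab27a was at 39.5, 17.6 and 22.4 CPM in control and 48.2, 35.1 and 37.8 CPM in p63KO, with control replicate 1 inside the p63KO range. Its log2 fold change was 0.61 (SE 0.26, adjusted p = 0.12). Without control replicate 1 it was called higher (1.02, adjusted p = 0.0029). Rab27b was at 17.3, 18.2 and 16 CPM in control and 11.2, 11.1 and 15.5 CPM in p63KO. All p63KO libraries lay below control, and its log2 fold change was -0.45 (SE 0.15, adjusted p = 0.057). It was called lower without p63KO replicate 3 (-0.62, adjusted p = 0.015).

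Of the Rab effectors, Rims1, Rims2 and Rph3al rose and Sytl4 did not pass. Rims1 and Rims2 encode RIM scaffolds that tie Rab3, calcium channels and Munc13 together at the release site. Rims2 was at 3.28, 1.12 and 4.0 CPM in control and 14.5, 10.9 and 15.1 CPM in p63KO, a 4.85-fold rise (adjusted p = 0.0016). Rims1 went from 0.34 ± 0.15 to 2.92 ± 0.19 CPM (log2 fold change 3.06, SE 0.37, adjusted p = 0.00024). Rph3al, or Noc2, an effector of endocrine and exocrine granules, rose 2.83-fold from 3.89 ± 0.63 to 11.0 ± 2.02 CPM (adjusted p = 0.00052). Rph3a, rabphilin, the synaptic relative of Noc2, had 1 count in control and 1 in p63KO, at or under the floor of 3 counts in both groups. Sytl4, granuphilin, which docks insulin granules, overlapped between groups at 9.87 ± 2.54 and 12.7 ± 1.73 CPM (adjusted p = 0.22), and it was called higher only without control replicate 1 (log2 fold change 0.59, adjusted p = 0.045).

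Priming genes fell into a set that rose and 1 gene that did not pass. Cadps, or CAPS1, which primes dense-core granules, was at 1.13, 1.28 and 1.06 CPM in control and 23.2, 13.4 and 19.5 CPM in p63KO. The control libraries differed little, and the rise was 4.0 on the log2 scale (SE 0.25, adjusted p = 4.0e-06). Cadps2 rose 4.58-fold, from 8.06 ± 1.20 to 36.9 ± 4.86 CPM (adjusted p = 6.7e-06). Unc13a, or Munc13-1, the main priming factor of synapses, was at 1.61, 1.53 and 0.88 CPM in control and 18.3, 10.9 and 12.0 CPM in p63KO, a 10.2-fold rise (adjusted p = 3.2e-05). Its broadly expressed paralog Unc13b was at 163.0, 163.7 and 148.0 CPM in control and 172.0, 179.5 and 165.1 CPM in p63KO. This paralog was abundant in every library, and its log2 fold change of 0.12 did not pass (SE 0.06, adjusted p = 0.20).

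All 4 genes for proteins of the vesicle itself rose. Syn2, a synapsin that tethers vesicles to each other, had the largest rise of the 35 genes. It was at 0.16, 0.05 and 0.35 CPM in control and 14.6, 9.97 and 15.6 CPM in p63KO, a 70.6-fold rise (log2 fold change 6.14, SE 0.42, adjusted p = 7.0e-06). Control held 10 counts of Syn2 in all against 602 in p63KO, and without control replicate 3 the log2 fold change was 6.90. Syp, synaptophysin, an abundant membrane protein of small vesicles, was at 1.29, 0.97 and 1.06 CPM in control and 10.2, 8.87 and 9.21 CPM in p63KO. Both groups were tight, and the rise was 8.48-fold (adjusted p = 7.7e-06). Syn1 rose 6.28-fold, from 0.51 ± 0.17 to 3.21 ± 0.52 CPM (adjusted p = 0.00030), and Sv2a, a vesicle glycoprotein, 4.87-fold, from 1.77 ± 0.38 to 8.61 ± 2.79 CPM (adjusted p = 0.00037).

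Nsf, the ATPase that separates used SNARE complexes, was at 51.9, 50.7 and 51.5 CPM in control and 68.1, 67.7 and 71.7 CPM in p63KO. The groups did not overlap, and the rise was 1.35-fold (log2 fold change 0.43, SE 0.06, adjusted p = 0.00068). Napa, alpha-SNAP, the adaptor of NSF, was at 127.4, 121.1 and 117.4 CPM in control and 127.8, 118.6 and 129.0 CPM in p63KO, with a log2 fold change of 0.04 (SE 0.06, adjusted p = 0.71). It showed no difference beyond the spread between libraries.

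Promoters were read for 27 of the 37 genes (34 start sites, RefSeq, build GRCm38.p6, 250 bases before to 50 after the start). Those of Snap25, Doc2b, Vamp2, Rab27b, Syt13, Vamp3, Rims2, Syt7, Syt4 and Syt5 were not read. Promoters were matched by symbol, since the counts were made on another build. They were searched on both strands, with no mismatch, for the cAMP response element TGACGTCA, which reads the same on both strands, and for the GC box GGGCGG. Neither motif contains the other. The cAMP response element was found in 2 of the 34 promoters (5.88%), those of Syn1 and Napa, and in 1.79% of all 32851 promoters. This motif was chosen after the promoter sequences had been seen. Syn1 rose and Napa did not pass. The GC box was found in 22 of the 34 promoters (64.7%) and in 35.7% of all promoters. The share among promoters of tested genes only was not counted. Genes with a GC box included Napa, Unc13b, Vamp1 and Rab27a, which did not pass, beside genes that rose. The sequences set a gene that rose beside one that did not, both with the cAMP response element in capitals: Syn1 (chrX:20920869-20921168, minus strand) and Napa (chr7:16098330-16098629, plus strand). Syn2 (chr6:115134652-115134951, plus strand), the gene with the largest rise, is shown with its 3 GC boxes in capitals. A match is a description of the letters and not a tested binding site.
Syn1: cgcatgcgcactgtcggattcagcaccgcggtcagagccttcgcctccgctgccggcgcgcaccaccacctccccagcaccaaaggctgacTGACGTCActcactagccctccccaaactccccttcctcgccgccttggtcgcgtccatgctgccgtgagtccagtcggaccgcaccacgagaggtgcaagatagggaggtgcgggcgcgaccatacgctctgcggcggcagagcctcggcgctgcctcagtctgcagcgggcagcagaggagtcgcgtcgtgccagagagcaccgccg
Napa: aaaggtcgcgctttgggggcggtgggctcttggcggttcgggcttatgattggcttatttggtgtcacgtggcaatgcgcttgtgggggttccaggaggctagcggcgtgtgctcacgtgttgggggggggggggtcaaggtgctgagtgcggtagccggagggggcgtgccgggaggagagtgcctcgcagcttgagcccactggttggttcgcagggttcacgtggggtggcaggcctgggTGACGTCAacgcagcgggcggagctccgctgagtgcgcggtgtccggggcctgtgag
Syn2: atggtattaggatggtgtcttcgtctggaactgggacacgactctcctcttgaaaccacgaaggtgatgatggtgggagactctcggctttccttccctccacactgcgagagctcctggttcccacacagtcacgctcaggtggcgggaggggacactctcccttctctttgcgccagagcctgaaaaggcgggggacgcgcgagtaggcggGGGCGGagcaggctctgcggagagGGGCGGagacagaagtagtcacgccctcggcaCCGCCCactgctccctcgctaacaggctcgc

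Exons of 10 of the 37 genes overlapped those of another gene in the GENCODE vM21 annotation. The strand setting of the counting is not given, so reads from the overlaps could be counted with either gene. For 5 of these 10 genes an overlapping gene was found among the counted symbols. The overlaps of the others were not checked. Araf, which overlaps Syn1, was at a log2 fold change of 0.17 (SE 0.08). Mpv17l2, which overlaps Rab3a, was at 0.06 (SE 0.11), and Glt25d1, which overlaps Unc13a, at -0.11 (SE 0.07). None of these 3 passed the test, and Timp4, which overlaps Syn2, had 0 counts in control and 1 in p63KO.

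Neuronal genes were then set against their broadly expressed paralogs within each library. Library scaling cancels in such a ratio, and gene length cancels in its difference between groups. Snap25 counts were 0.371%, 0.366% and 0.827% of the Snap23 counts in the control libraries, and 40.0%, 15.1% and 23.8% in the p63KO libraries. The log2 ratio was -7.55 ± 0.63 in control and -2.04 ± 0.70 in p63KO (SD, n = 3 each), a difference of 5.52. Per kilobase of exon, Snap25 was at 0.643% of Snap23 in control and at 32.4% in p63KO, so Snap23 remained the more abundant of the pair in both groups. Vamp2 gave another picture: its counts were 55.1%, 64.9% and 45.5% of the Vamp3 counts in control and 70.8%, 53.9% and 48.9% in p63KO. The log2 ratios, -0.87 ± 0.26 and -0.81 ± 0.28, overlapped and differed by 0.066, less than the spread between replicates (two-sided exact permutation p = 0.80). This small difference was -0.07 without control replicate 3 and -0.088 without p63KO replicate 1.

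Further pairs of the same kind were measured, with partners from outside the 37 genes where needed. Unc13a counts were between 0.597% and 0.988% of Unc13b counts in control and between 6.10% and 10.6% in p63KO, a log2 difference of 3.22. Syp was between 0.716% and 0.917% of its broad relative Sypl in control and between 4.30% and 5.96% in p63KO, a difference of 2.62. Napb, the neuronal relative of Napa, differed least among the pairs that did not overlap, at between 3.75% and 3.86% of Napa in control and between 4.66% and 5.25% in p63KO, a difference of 0.36. In 4 of these 5 pairs, all but Vamp2 over Vamp3, every p63KO library lay above every control library. Each of the 4 had a two-sided exact permutation p of 0.10, the smallest that 3 against 3 libraries allow, and an adjusted p of 0.12 over the 6 pairs compared, so none of them passed. Napb itself, with a log2 fold change of 0.40 (SE 0.17), did not pass over all genes (adjusted p = 0.12).

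**Figure D3:**
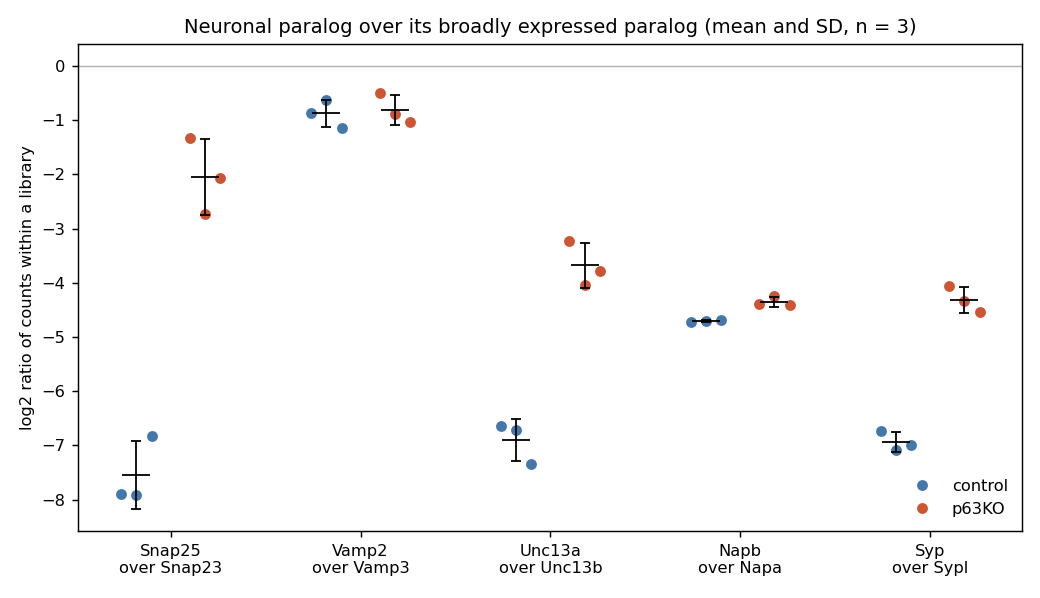
Log2 ratio of the counts of a neuronal gene over those of its broadly expressed paralog in each library (points), with the mean and SD of 3 control (blue) and 3 p63KO (orange-red) libraries. The ratio of Snap25 over Snap23 moves from -7.55 to -2.04, while that of Vamp2 over Vamp3 overlaps between groups at -0.87 and -0.81.

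Levels were compared between genes as CPM per kilobase of exon, with lengths from GENCODE vM21, which may differ from the annotation used for counting. In control, Napa (48.4 CPM per kilobase), Vamp3 (47.3), Snap23 (20.6), Cplx2 (20.2) and Vamp2 (19.5) were the highest of the 37, and Rph3a, Syt4, Cplx1, Syn2 and Rims1 were the lowest. In p63KO, Cplx2 (58.4), Vamp3 (52.2) and Napa (49.7) were the highest. Of the 11 genes at 5 CPM per kilobase or more in control, 5 were called higher and 1 of these, Cplx2, by at least 2-fold. Of the other 26 genes, 24 were tested, 21 were called higher and all 21 by at least 2-fold. Over all tested genes, 6.70% were higher by at least 2-fold. The limit of 5 was set after the values had been seen, and the control level enters both the level and the fold change, so this is a description only. Snap25, after its rise, reached 6.11 CPM per kilobase, between Doc2b (8.85) and Cadps2 (5.92), whose values in p63KO were of the same order. The sum of all 37 genes was at 932.9, 822.8 and 836.8 CPM in control and 1634, 1361 and 1477 CPM in p63KO.

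**Figure D4:**
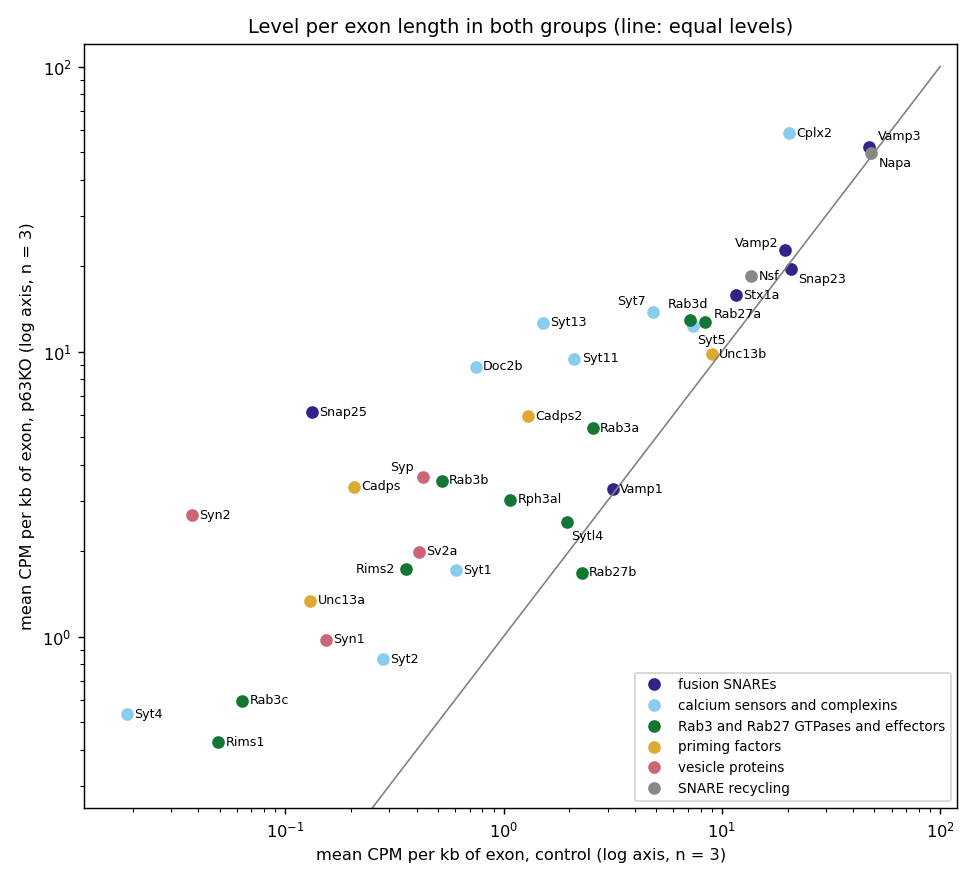
Mean level of the 35 tested exocytosis genes per kilobase of exon in control (x) and p63KO (y), both on log axes, coloured by role, with a line of equal levels. Genes at the upper right, such as Napa, Vamp3 and Snap23, lie close to the line, and genes that are low in control, such as Syn2 and Snap25, lie furthest above it.

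A wider list held 84 exocytosis genes outside the 37. Of 72 tested, 22 were higher (30.6%, against 15.3% of all tested genes), 12 were lower (16.7%, close to the 14.3% of all tested genes) and 38 did not pass, with a median log2 fold change of 0.15. Syt17, Stxbp5l, Rimbp2 and Unc13d were among those that rose with the lowest p. Rimbp2, which links RIM to calcium channels, rose from 0, 0.05 and 0.53 CPM to 11.3, 8.24 and 12.0 CPM. Stxbp5l, tomosyn-2, an inhibitor of SNARE assembly, was at 0.81, 0.36 and 4.89 CPM in control and 66.3, 57.6 and 60.1 CPM in p63KO. Of the 22 higher genes of this list, 18 reached the count filter in control. Rimbp2 and Stxbp5l reached it only in p63KO, so a difference was built into their entry. For both Rimbp2 and Stxbp5l, control replicate 3 was the highest control library, and without it their log2 fold changes were 8.28 and 6.71 in place of 5.78 and 4.98. Syt17 rose 5.21-fold, from 1.06 ± 0.14 to 5.60 ± 1.07 CPM, and Unc13d, the Munc13 of granules in blood cells, rose 2.48-fold.

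The genes with the lowest p among those that fell were Syn3, Vamp4, Vamp5, Sytl1 and Vamp8. Syn3, a synapsin, was at 22.3, 17.1 and 19.5 CPM in control and 11.0, 9.77 and 11.8 CPM in p63KO, a fall that did not overlap (log2 fold change -0.85, SE 0.14, adjusted p = 0.0015). The synapsin family thus held both directions, with Syn1 and Syn2 rising from under 1 CPM and Syn3 falling from 19.6 ± 2.59 CPM. Vamp8, an endosomal and exocrine vesicle SNARE, fell by 0.40 on the log2 scale from 57.8 ± 3.30 CPM, Vamp4 of the trans-Golgi network by 0.46, and Vamp5 by 2.04. Vamp5 held only 72 counts in control and 14 in p63KO. It reached the count filter only in control, so a difference was built into its entry. The Vamp8 call was lost without p63KO replicate 2 (-0.30, adjusted p = 0.050). Sytl1, a Rab27 effector, fell by 1.17 on the log2 scale. Of the 9 exocyst genes, which tether constitutive vesicles, 1 was higher, 1 was lower and 7 did not pass. Of this wider list, 6 genes were called lower when control replicate 1 or p63KO replicate 2 was left out. That number was 7 when the omitted library was control replicate 3 or p63KO replicate 3.

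Marker lists for the labelled tissue and for other cell types were read from the same libraries. Epithelial markers were high in every library: the sum of 10 of them was between 4469 and 4691 CPM in control and between 4945 and 5033 CPM in p63KO, with Cdh1 and Epcam the most abundant. Of these 10 markers 5 rose, 2 fell and 3 did not pass. Cdh1 fell by 0.40 on the log2 scale (adjusted p = 0.00076), and Epcam, at 0.15, did not pass (adjusted p = 0.057) but was called higher with DESeq2 (adjusted p = 0.0091) and limma-voom (0.038). All 10 markers of neuroendocrine cells rose, 8 of them from below the filter in control, and their sum went from between 34.2 and 50.4 CPM to between 455.6 and 583.1 CPM. Insm1 (log2 fold change 7.65) and Chga (4.94), a granule protein, were among them. Of 16 markers of enteric neurons and neural crest, 13 were tested, 5 rose and 2 fell, and the sum went from between 73.2 and 106.4 CPM to between 253.4 and 326.2 CPM. Averaged over both groups, Ret and Tubb3 were the most abundant of them, and they rose (4.84 and 5.72 on the log2 scale). In control the most abundant was Th, tyrosine hydroxylase of catecholamine synthesis, named here after its values had been seen. Th ran the other way, from 68.4, 47.3 and 55.0 CPM in control to 0.47, 0.28 and 0.74 CPM in p63KO, a fall by 6.83 on the log2 scale (adjusted p = 2.5e-07). Sox10, a defining crest factor, went from 3.26 ± 1.82 to 1.26 ± 0.72 CPM without passing (log2 fold change -1.34, adjusted p = 0.088). It was called lower with DESeq2 (-1.35, adjusted p = 0.046) and without control replicate 2 (-1.64, adjusted p = 0.044). No neuroendocrine or crest marker was at 0 in all control libraries. Some neuroendocrine markers had at most 3 counts over the control group, at or under the floor, so their expression in control was not shown. The part of either cell type in the rise of the exocytosis genes was not tested.

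Among 10 mesenchyme markers 5 fell and 2 rose, and their sum went from between 451.1 and 534.1 CPM to between 1258 and 1652 CPM. Without Dcn, whose log2 fold change was 2.94, the sum was between 240.0 and 386.0 CPM in control and between 142.4 and 310.0 CPM in p63KO, with Col3a1 lower (-1.11). The muscle sum was between 69.0 and 155.8 CPM in control and between 27.6 and 51.3 CPM in p63KO (Acta2 -1.29, Myh11 -1.36). The Col3a1 call was lost in 4 and the Myh11 call in 3 of the 6 fits that left out 1 library. With robust dispersions the calls of Acta2 (adjusted p = 0.053), Myh11 (0.14) and Col3a1 (0.19) were all lost, and DESeq2 did not call Col3a1 (0.091). Endothelial and blood sums overlapped between groups, at most 6.83 and 35.3 CPM, and no tested gene of either list passed (Pecam1 0.03, Tek 0.76, Alas2 -0.02 and Hbb-y 0.03 on the log2 scale), although Hbb-y was called higher without control replicate 3 (2.05, adjusted p = 0.013).

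**Figure D5:**
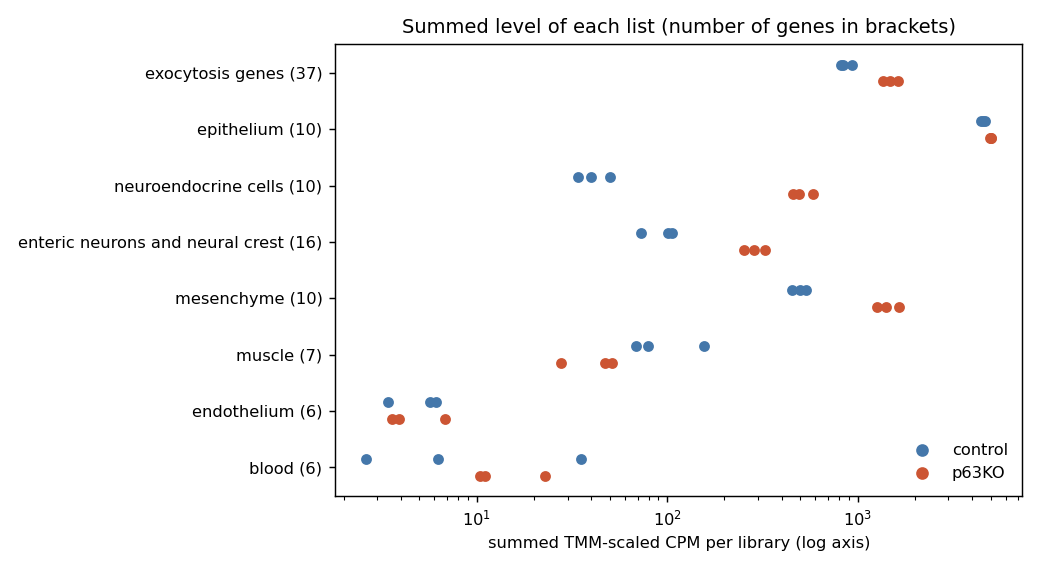
Summed TMM-scaled CPM of the 37 exocytosis genes and of each marker list in every library, on a log axis, with control in blue and p63KO in orange-red. The exocytosis sum (822.8 to 932.9 against 1361 to 1634 CPM) and the neuroendocrine sum (34.2 to 50.4 against 455.6 to 583.1 CPM) do not overlap between groups, while the endothelial and blood sums do.

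Of the 26 exocytosis genes that rose, 19 (73.1%) were highest in p63KO replicate 1 among the p63KO libraries, against 47.0% of all 2113 genes called higher. In p63KO replicate 2, 23 of the 26 (88.5%) were lowest, against 47.7%. Among the control libraries, 21 of the 26 (80.8%) were lowest in replicate 2, against 41.0%. These genes were called on the same libraries, so the shares are a description with no test. The neuroendocrine, crest, mesenchyme and epithelial sums were likewise highest in p63KO replicate 1 and lowest in replicate 2 of each group. The muscle, endothelial and blood sums were not. Without Dcn, the mesenchyme sums in p63KO were 310.0, 205.8 and 142.4 CPM, lowest in replicate 3. The epithelial sums in p63KO lay close together, at 5033, 4945 and 5023 CPM. This order was thus not seen in the exocytosis genes alone, though for mesenchyme it rested on Dcn. All 26 calls were kept in each of the 6 fits that left out 1 library.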

How the data were processed

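The authors deposited 1 table of unnormalized whole-number counts by gene symbol for 6 libraries, and its column names stand in the sample descriptions. The submitters' processing notes list bcl2fastq 1.8.4 and TopHat2 2.1.0, as well as DESeq2 and the build mm9. RNA was purified with a PicoPure kit and sequenced from TruSeq libraries, per the labels. The sources used here do not state the read counter, the annotation or the strand setting.

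The analysis used edgeR 4.0.16 in R 4.3.3, with filterByExpr (minimum count 10, minimum total 15), TMM scaling, and the quasi-likelihood test of p63KO against control with group as the only term. The filter left 13849 of 18572 genes with a count, and Benjamini-Hochberg adjustment ran over all of them, with calls at 0.05. The SE is the log2 fold change divided by the square root of F. Paralog ratios used a pseudocount of 0.5 and an exact permutation test over libraries. The code was tested on simulated data. Libraries of a group differed by far more than counting noise (chi-square over its degrees of freedom between 7.79 and 14.8).

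Alternatives were DESeq2 1.42.0, limma-voom (limma 3.58.1), other scalings, filters, dispersions and thresholds, a replicate block, and each library left out. The 37 genes, the wider list, the paralog pairs and the markers were chosen with earlier results of these data known. Named genes are the 37, the 5 of the wider list with the lowest p in each direction, the pair partners, the 2 most abundant tested markers of each list, Sox10, Chga, Insm1 and Trp63, and a few of them are left out of the text but stay in the counts, sums and medians. The overlapping genes were added after their values had been seen. Of the 23284 symbols, 23042 matched a current RefSeq symbol or a synonym.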

Additional observations from a re-analysis of the deposited data

How the results depend on the processing

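The number of exocytosis genes called higher was between 26 and 28 with 1 library left out, and the 26 calls were kept under every other scaling, test, filter and dispersion and at an adjusted p under 0.01. At a 2-fold threshold 22 were kept, and Stx1a, Syt5, Rab3d and Nsf were not. The number called lower was 0 or 1 with a library left out, and 1 (Rab27b) with limma-voom and with robust dispersions. Of the wider list, 12 were called lower and between 6 and 9 with 1 library left out, 3 at an adjusted p under 0.01 and 2 at 2-fold, where 10 were higher. Over all genes, 1353 were higher and 1227 lower at an adjusted p under 0.01, and 928 and 684 at 2-fold. With 1 library left out, between 1650 and 1965 genes were higher and between 1500 and 1806 lower. Because these thresholds are stricter, fewer calls follow from their construction, and the cause of the other changes was not tested.

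Values near 0 changed sign. With 1 library left out, Snap23 ranged from -0.14 to 0.012, Pecam1 from -0.72 to 0.51, Hbb-y from -0.50 to 2.05 and Alas2 from -0.22 to 0.38 on the log2 scale. Snap23 was at 0.012 without p63KO replicate 1, and Vamp1 at -0.05 without control replicate 3 and -0.18 without p63KO replicate 1. The ratio of Vamp2 over Vamp3 ranged from -0.088 to 0.19 with 1 library left out. Alas2 was at 0.00072 with upper quartile scaling, 0.023 with limma-voom, 0.013 with the replicate block, 0.38 without control replicate 3 and 0.20 without p63KO replicate 1. Pecam1 was at -0.34 with limma-voom, -0.12 with the replicate block, and -0.05, -0.12 and -0.72 without control replicate 1, control replicate 3 and p63KO replicate 3. Hbb-y was at -0.50, -0.37 and -0.49 without control replicate 1, control replicate 2 and p63KO replicate 3.

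Libraries of the same number share only that number in the labels. The correlations of their deviations from the group means were 0.22, 0.28 and 0.06, and each library correlated best with its own number, a hint from the data and not from the design. With the replicate block, 27 exocytosis genes were higher and 0 lower, Rab27a (0.67, edgeR adjusted p = 0.0084) being the one gained, and 23 genes of the wider list were higher and 13 lower. Genes with a few counts in control, such as Syt4, Syn2 and Snap25, have the least certain fold changes at this depth.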
